A study of Homo sapiens with 10 samples.

Results

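The integrin and focal adhesion genes followed here are 40 of the 26485 genes listed in the count files, taken by symbol: 17 integrin α chains, 8 integrin β chains and 15 cytoplasmic adaptors and kinases. They were measured in SW480, an established human colorectal cancer cell line, whose cells were separated by flow cytometry with an antibody to the guidance receptor ROBO1. The ROBO1pos population, which the labels name SW480-CBC, and the ROBO1neg population, named SW480-RSC, each have 5 libraries of polyadenylated RNA. Both come from the same line, have the genotype label WT, were grown in the same medium and received no treatment that the labels record. Nothing in the labels tells whether the 5 replicates of a group were grown apart, and the tests below therefore speak to library-to-library variation alone, which could be purely technical.

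Integrins are receptors that join the extracellular matrix to the cytoskeleton, each built from an α and a β chain. Talins and kindlins bind the tail of the β chain and switch the receptor on, and vinculin, paxillin, tensins and the complex of ILK with the parvins then carry force to actin, while focal adhesion kinase starts signalling. In gut epithelium, the receptor of ITGA6 and ITGB4 anchors cells to laminin in hemidesmosomes, and partners of ITGB1 bind laminin, collagen and fibronectin.

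Reads counted on genes ran from 23228686 to 29539100 per library. Before the TMM scaling of library sizes used for the levels below, 1 CPM (count per 1000000 counts on genes) stood for 23.2 to 29.5 reads. Reads on genes made up 57.5% to 59.7% of all reads listed in ROBO1pos libraries and 63.1% to 63.8% in ROBO1neg libraries. ROBO1 itself was at 429.5 ± 26.7 CPM in ROBO1pos and 7.25 ± 1.47 CPM in ROBO1neg (SD, n = 5 each), which matches the labels. Of 9 colonic epithelial markers only KRT20 was at 0 in every library, and their summed level was 5777 to 7034 CPM in ROBO1pos and 7980 to 10495 CPM in ROBO1neg. The keratins KRT8, KRT18 and KRT19 carried most of that sum, and the other markers of the list were divided. EPCAM had a higher mean in ROBO1pos, at 679.9 CPM in ROBO1pos and 303 CPM in ROBO1neg. So did VIL1, at 503 CPM in ROBO1pos and 27.7 CPM in ROBO1neg, and CDX1, at 0.744 CPM in ROBO1pos and 0.0306 CPM in ROBO1neg. CDH1 had a lower mean in ROBO1pos, at 34.2 CPM in ROBO1pos and 44.4 CPM in ROBO1neg, and CDX2 was at 28.8 CPM in ROBO1pos and 30 CPM in ROBO1neg. The summed level of 9 leukocyte markers was 4.02 to 5.13 CPM in ROBO1pos and 5.01 to 6.99 CPM in ROBO1neg. PTPRC, the common leukocyte antigen, had 6 reads over all ROBO1pos libraries and 0 over all ROBO1neg libraries. Summed markers of fibroblasts (7 genes) were at 10.3 to 14 CPM in ROBO1pos and 14 to 22.6 CPM in ROBO1neg, and those of endothelium (5 genes) at 0.504 to 0.889 CPM in ROBO1pos and 2.43 to 4.36 CPM in ROBO1neg. Neither list moved as a whole: the sums followed COL1A1 and PDGFRB and, in endothelium, VWF, while LUM was at 3.73 CPM in ROBO1pos and 0.0309 CPM in ROBO1neg and CDH5 at 0.209 CPM in ROBO1pos and 0.0451 CPM in ROBO1neg. The part of such cells in the results was not tested.

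Of 18 integrin chains with enough reads to test, 16 were less abundant in ROBO1pos cells, as were 9 of 15 adaptors and kinases. Among the 33 members with enough reads to test, 25 were lower in ROBO1pos, 4 were higher and 4 did not pass (edgeR quasi-likelihood test, adjusted p under 0.05 over 14932 genes). The shares for all genes tested were 40.4% lower and 41.6% higher, together 82.0%. A 2-fold or larger deficit in ROBO1pos was seen for 16 of the 33, against 16.8% of all genes, and a 2-fold or larger excess for 2, against 13.5%. When the difference had to exceed 1.5-fold (edgeR glmTreat), 21 members were lower and 3 higher, beside 22.1% and 19.7% of all genes. The median log2 fold change, ROBO1pos minus ROBO1neg, was -1.0 over the tested members and 0.02 over all genes. For 28 of the 33, no ROBO1pos library fell within the ROBO1neg range or the reverse, which was so for 71.9% of all genes. ITGAX, ITGB2 and TNS1 had enough reads for the test only through ROBO1neg, so that they had to differ. They are part of each count above of members lower in ROBO1pos or without overlap. Of the 30 members that reached the cut of 0.399 CPM in every library, 22 were lower and 4 higher, beside 40.2% lower and 41.1% higher of the 13143 genes that did so. Of these 30, 13 were lower by 2-fold or more, a count with no matching share over the 13143 genes. In RNA from a sorted population, fewer cells with a transcript and less of it per cell cannot be told apart.

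**Figure D1:**
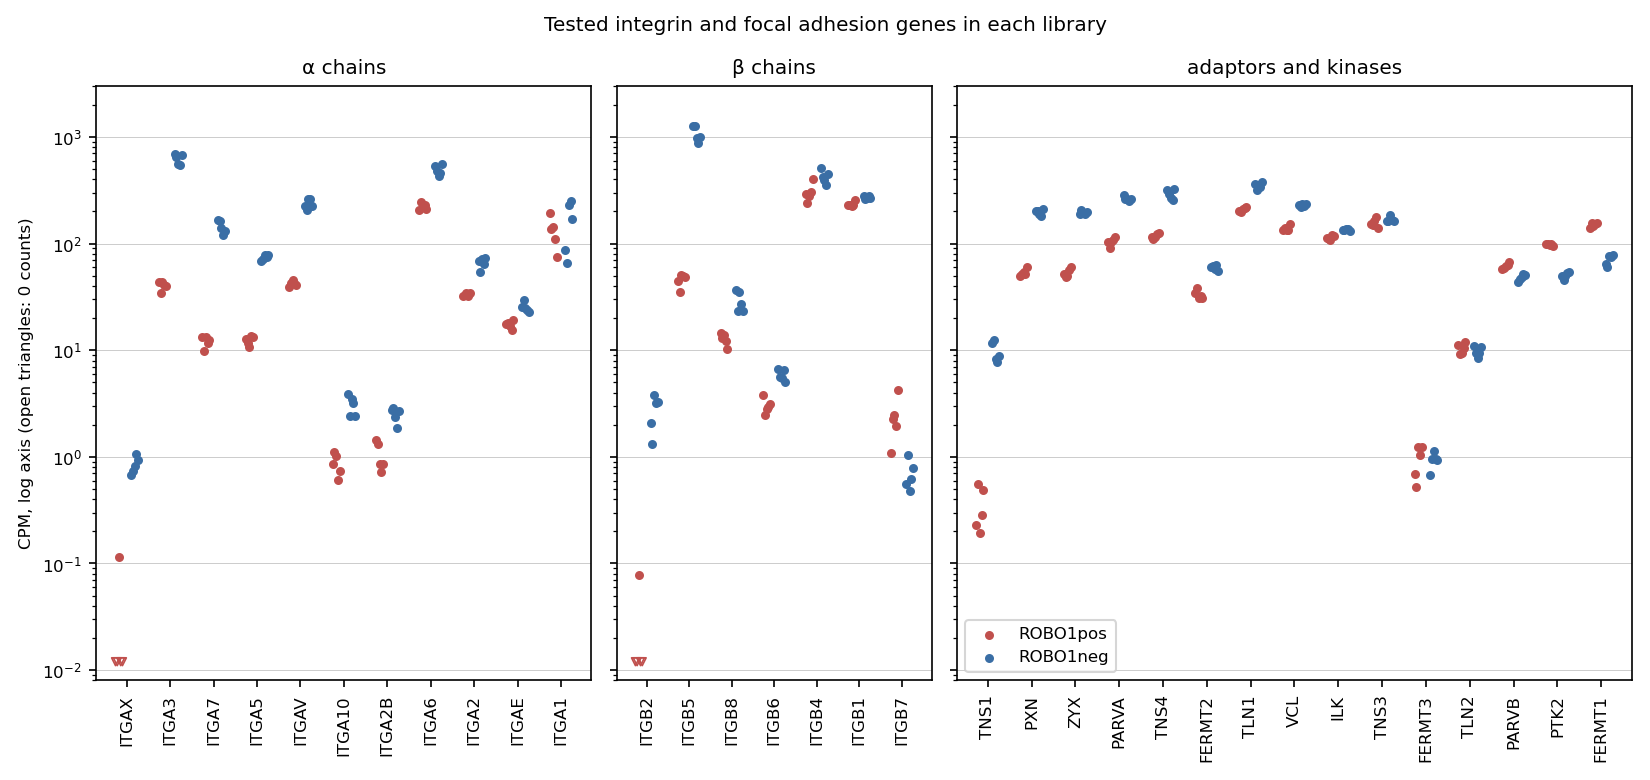
CPM of the 33 tested members in every library (log axis), with ROBO1pos in red to the left of ROBO1neg in blue and open triangles for libraries with 0 counts. ITGB5 lay at 35.0 to 50.5 CPM in ROBO1pos and 885 to 1269 CPM in ROBO1neg, whereas FERMT1 and PTK2 lay higher in ROBO1pos.

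Promoter sequences were available for 28 of the 40 members (RefSeq, GRCh38.p14, 250 bases before to 50 after the start), and those of 4 members lower in ROBO1pos are printed because they contrast a promoter with all 3 motifs searched (ITGA5) with others that hold 1 of them. ITGA5 (chr12:54419217-54419516, minus strand) and ITGB5 (chr3:124901369-124901668, minus strand) are chains that pair with ITGB1 and ITGAV, and PXN (chr12:120265681-120265980, minus strand) and ZYX (chr7:143381095-143381394, plus strand) are adaptors with nearly the same fold change. Capitals mark matches on either strand to TGANTCA (an AP-1 motif), GGAATG (a TEAD motif) and GGGCGG (an SP1 motif), and adjoining capitals can be overlapping or neighbouring matches.
ITGA5: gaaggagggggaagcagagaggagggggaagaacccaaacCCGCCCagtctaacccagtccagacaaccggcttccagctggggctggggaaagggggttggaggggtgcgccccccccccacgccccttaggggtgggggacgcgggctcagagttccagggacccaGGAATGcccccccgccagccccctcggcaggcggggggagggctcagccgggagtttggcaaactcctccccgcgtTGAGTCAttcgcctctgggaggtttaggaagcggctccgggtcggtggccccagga
ITGB5: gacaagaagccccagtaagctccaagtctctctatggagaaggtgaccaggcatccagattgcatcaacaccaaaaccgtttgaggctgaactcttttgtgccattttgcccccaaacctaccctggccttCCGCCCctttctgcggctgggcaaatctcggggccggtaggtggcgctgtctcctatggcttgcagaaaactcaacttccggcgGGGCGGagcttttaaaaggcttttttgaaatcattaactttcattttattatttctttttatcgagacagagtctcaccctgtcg
PXN: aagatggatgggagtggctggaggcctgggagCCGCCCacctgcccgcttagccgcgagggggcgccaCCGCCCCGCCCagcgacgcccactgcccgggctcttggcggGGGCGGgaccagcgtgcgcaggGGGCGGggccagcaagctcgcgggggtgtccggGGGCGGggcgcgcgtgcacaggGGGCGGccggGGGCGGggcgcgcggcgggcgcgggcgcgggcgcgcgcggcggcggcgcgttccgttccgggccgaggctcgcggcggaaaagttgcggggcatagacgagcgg
ZYX: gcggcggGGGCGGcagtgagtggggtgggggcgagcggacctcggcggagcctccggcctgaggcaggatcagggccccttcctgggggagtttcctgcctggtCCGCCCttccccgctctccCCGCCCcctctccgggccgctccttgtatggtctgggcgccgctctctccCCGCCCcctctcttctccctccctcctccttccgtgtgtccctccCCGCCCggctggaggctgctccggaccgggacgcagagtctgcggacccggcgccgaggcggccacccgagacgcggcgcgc

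The AP-1 letters were found in 1 of 18 promoters of members lower in ROBO1pos, in 4.53% of 10743 promoters of tested genes and in 7.72% of all 27305. The match in ITGA5 begins 6 bases before the annotated start. The TEAD letters were found in 4 of the 18, in 11.1% of promoters of tested genes and in 14.1% of all. The SP1 letters were found in 13 of the 18, in 69.2% of promoters of tested genes and in 44.5% of all, with 8 matches in PXN, 5 in ZYX and 2 in ITGB5. Of the members higher in ROBO1pos, only ITGB7 and PARVB had a promoter in the table, with AP-1 and TEAD letters in neither and SP1 letters in 1 of them. A match to such short letters is a description and does not show binding. For 5 of the 28 the window does not lie at the outermost start of the gene in RefSeq, PARVB among them. Where several promoter windows were available for a gene, the most upstream was taken, and the starts used in these cells were not measured.

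The laminin-binding α chains were all lower in ROBO1pos. ITGA3, on chromosome 17 from 50056110 to 50090481 (RefSeq, GRCh38.p14), pairs with ITGB1 and binds the laminins of epithelial basement membrane. It was at 43.7, 34.2, 44, 40.9 and 40.1 CPM in the ROBO1pos libraries, against 686, 654, 558, 541 and 671 CPM in the ROBO1neg libraries. The groups lay far apart, with a level 15.3-fold lower in ROBO1pos (log2 fold change -3.94, SE 0.09, adjusted p = 1.2e-13). ITGA7, a laminin receptor best known from muscle, was at 13.4, 9.93, 13.4, 11.6 and 12.5 CPM in the ROBO1pos libraries, against 166, 162, 139.6, 119 and 130.4 CPM in the ROBO1neg libraries. Here too every ROBO1pos library was below every ROBO1neg library, by 11.8-fold on average (log2 fold change -3.56, SE 0.11, adjusted p = 1.6e-12). ITGA6, the partner of ITGB4 in hemidesmosomes and of ITGB1 elsewhere, was at 205, 247, 228, 229.8 and 212 CPM in the ROBO1pos libraries, against 531, 478, 429.7, 456 and 558 CPM in the ROBO1neg libraries. Again the groups did not overlap, but the difference was smaller, 2.19-fold lower in ROBO1pos (log2 fold change -1.13, SE 0.07, adjusted p = 3.3e-09).

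Of the RGD-binding α chains, which recognise a short peptide motif in fibronectin, vitronectin and latent TGF-beta, the 3 tested were lower in ROBO1pos. ITGA5, the fibronectin receptor chain, was at 12.7, 11.6, 10.8, 13.5 and 13.3 CPM in the ROBO1pos libraries, against 69.1, 72, 77.8, 74.8 and 78.1 CPM in the ROBO1neg libraries. That is 6.01-fold lower in ROBO1pos (log2 fold change -2.59, SE 0.06, adjusted p = 2.6e-13). ITGAV, which pairs with ITGB1 and with the β chains ITGB3, ITGB5, ITGB6 and ITGB8, was at 39.5, 42.2, 46, 43.1 and 40.6 CPM in the ROBO1pos libraries, against 225, 205, 262, 259.6 and 226 CPM in the ROBO1neg libraries. The groups did not overlap, and the level was 5.57-fold lower in ROBO1pos (log2 fold change -2.48, SE 0.07, adjusted p = 9.8e-13). ITGA2B, the platelet fibrinogen receptor chain, was low in both groups, at 1.04 ± 0.318 CPM in ROBO1pos and 2.51 ± 0.403 CPM in ROBO1neg. The platelet genes GP9, PF4 and PPBP were at 0 in every library. ITGA8 had 0 reads in every library.

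The collagen-binding α chains differed among themselves. ITGA2 was at 33.2 ± 1.16 CPM in ROBO1pos and 66.3 ± 7.79 CPM in ROBO1neg (log2 fold change -1.0, SE 0.07), and ITGA10 at 0.863 ± 0.203 CPM in ROBO1pos and 3.08 ± 0.653 CPM in ROBO1neg (-1.82, SE 0.20). ITGA1, the neighbour of ITGA2 on chromosome 5, was at 192, 138, 143, 109.9 and 74.1 CPM in the ROBO1pos libraries, against 86.3, 65, 229, 249 and 171 CPM in the ROBO1neg libraries. Its values overlapped, with ROBO1neg replicates 1 and 2 below most ROBO1pos libraries and replicates 3 and 4 above all of them. The log2 fold change of -0.29 (SE 0.33) did not pass (adjusted p = 0.435), and the 95% interval of the ratio of ROBO1neg over ROBO1pos ran across equality, with bounds of 0.775 and 1.92. Merged exons of ITGA1 overlap those of PELO, a ribosome rescue factor on the same strand, over 4.42% of their length.

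Of the chains known from leukocytes, ITGB2 and ITGAX were at trace levels, whereas ITGAE was not. ITGB2, the β chain shared by the leukocyte adhesion receptors, had 0, 0, 2, 0 and 0 reads in ROBO1pos libraries and 49, 31, 87, 94 and 90 reads in ROBO1neg libraries. The ratio of summed reads, scaled for library size, was 177-fold lower in ROBO1pos, with an exact binomial 95% interval of 48.6 to 1465 that covers counting error only. ITGAX, the dendritic and myeloid cell chain, had 3 reads over all ROBO1pos libraries and 109 over all ROBO1neg libraries, a ratio of 36.6 (12.2 to 180.2). ROBO1pos replicate 3 held every ROBO1pos read of ITGB2, ITGAX and ITGB3. Without it the fitted log2 fold changes of ITGB2 and ITGAX were -9.12 and -7.45, against -7.06 and -4.92 with it. The ratios and fold changes of ITGB2 and ITGAX are given as a description, because both met the count filter only through ROBO1neg. ITGB2-AS1, an antisense gene whose exons overlap 6.29% of those of ITGB2, was at 0.0547 ± 0.0344 CPM in ROBO1pos and 4.71 ± 1.3 CPM in ROBO1neg, and without a stated strand setting its reads may not be separated from those of ITGB2. ITGAE, the chain of intraepithelial lymphocytes that binds E-cadherin, was at 17.4 ± 1.34 CPM in ROBO1pos and 25.3 ± 2.63 CPM in ROBO1neg (log2 fold change -0.54, SE 0.08, adjusted p = 2.0e-05).

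ITGA4, ITGA9, ITGA11, ITGAL, ITGAM and ITGB3 had too few reads to test. ITGA4, a fibronectin and VCAM1 receptor chain, had 7, 8, 7, 4 and 4 reads in ROBO1pos libraries and 1, 0, 0, 0 and 0 in ROBO1neg libraries. ITGA9, its close relative, had 26, 22, 6, 7 and 5 reads in ROBO1pos libraries and 1, 2, 1, 0 and 1 in ROBO1neg libraries. These were the α chains with more reads in ROBO1pos, and with no filter on low counts both passed (edgeR adjusted p = 4.6e-05 for ITGA4 and 1.6e-04 for ITGA9). ITGAM had 4 reads in ROBO1pos and 109 in ROBO1neg, and ITGB3, the vitronectin receptor chain of platelets and osteoclasts, had 2 in ROBO1pos and 65 in ROBO1neg. ITGA11 had 1 read in ROBO1pos and 12 in ROBO1neg, and ITGAL had 0 in ROBO1pos and 4 in ROBO1neg. With no filter on low counts ITGAM, ITGB3 and ITGA11 passed as lower in ROBO1pos (edgeR adjusted p = 2.9e-05, 2.3e-06 and 0.00739). ITGAL did not pass (edgeR adjusted p = 0.0878). The leukocyte marker list above holds ITGAL and ITGAM themselves.

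The β chains ranged from nearly equal levels to differences of over 20-fold. ITGB5, on chromosome 3 from 124761948 to 124901418, pairs with ITGAV in a vitronectin receptor. It was at 44.6, 35, 50.5, 49.8 and 48.6 CPM in the ROBO1pos libraries, against 1269, 1256, 979, 885 and 1008 CPM in the ROBO1neg libraries. It was 23.6-fold lower in ROBO1pos (log2 fold change -4.56, SE 0.13, adjusted p = 8.1e-13), and its promoter is among those printed. ITGB1, the shared partner of most α chains, was at 229.5, 228, 223, 232 and 254 CPM in the ROBO1pos libraries, against 281, 263, 269.8, 277 and 268 CPM in the ROBO1neg libraries. The ranges did not overlap, but the difference was 1.16-fold (95% interval 1.10 to 1.23). ITGB4, the hemidesmosome chain, was at 294, 240.3, 278, 303 and 405 CPM in the ROBO1pos libraries, against 513, 423, 392, 355 and 447 CPM in the ROBO1neg libraries. ROBO1pos replicate 5 lay above ROBO1neg replicates 3 and 4, and the log2 fold change was -0.49 (SE 0.12, adjusted p = 0.00232).

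ITGB6 and ITGB8, which with ITGAV activate latent TGF-beta, were both lower in ROBO1pos. ITGB6 was at 3.04 ± 0.484 CPM in ROBO1pos and 5.85 ± 0.724 CPM in ROBO1neg (log2 fold change -0.95, SE 0.13). ITGB8 was at 12.8 ± 1.62 CPM in ROBO1pos and 29.1 ± 6.26 CPM in ROBO1neg (log2 fold change -1.18, SE 0.14). ITGB7, the gut-homing chain of lymphocytes and partner of ITGAE, was the β chain higher in ROBO1pos, at 1.08, 2.26, 2.48, 1.94 and 4.19 CPM in the ROBO1pos libraries, against 0.552, 1.03, 0.477, 0.614 and 0.793 CPM in the ROBO1neg libraries. These values did not overlap (log2 fold change 1.77, SE 0.33, adjusted p = 1.9e-04), but rest on 28 to 102 reads per ROBO1pos library and 11 to 24 per ROBO1neg library. Exons of ZNF740 on the opposite strand cover 51.41% of those of ITGB7, and ZNF740 was at 94.9 ± 4.45 CPM in ROBO1pos and 117 ± 4.21 CPM in ROBO1neg, so reads of these genes may not be separated.

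Per kilobase of merged exons (GENCODE 29), which allows levels of different chains to be set side by side, the summed α chains were at 72.5 to 82.7 CPM per kilobase in ROBO1pos and 307 to 343 in ROBO1neg. ITGA6 made up a median of 50% of that sum in ROBO1pos (42.4% to 51.3%) and 25.7% in ROBO1neg (23.6% to 27.8%). The share of ITGA3 was 10.8% in ROBO1pos (8.49% to 11.3%) and 40% in ROBO1neg (36.1% to 42%). Thus ITGA6 was the leading α chain in each ROBO1pos library and ITGA3 in each ROBO1neg library. Next in ROBO1pos came ITGA1 with 15.6% (9.50% to 21.6%), which overlaps the range of ITGA3, and in ROBO1neg ITGA6 was followed by ITGA7 with 9.93% (8.41% to 11.3%) and ITGAV with 9.18% (8.93% to 11.7%), which overlap each other. The summed β chains were at 108 to 145 CPM per kilobase in ROBO1pos and 336 to 451 in ROBO1neg. ITGB1 and ITGB4 led in ROBO1pos with medians of 48.8% (44.8% to 54%) and 40% (36.1% to 45.3%), which overlap. In ROBO1pos replicate 5 ITGB4 was above ITGB1. ITGB5 was at 8.58% (7.43% to 9.93%) in ROBO1pos. In ROBO1neg ITGB5 held 61.8% (60.3% to 67.3%), while ITGB1 and ITGB4 held 18.1% and 17.5% with overlapping ranges. Shares of a sum depend on each other, and the transcripts that these cells use were not measured.

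**Figure D2:**
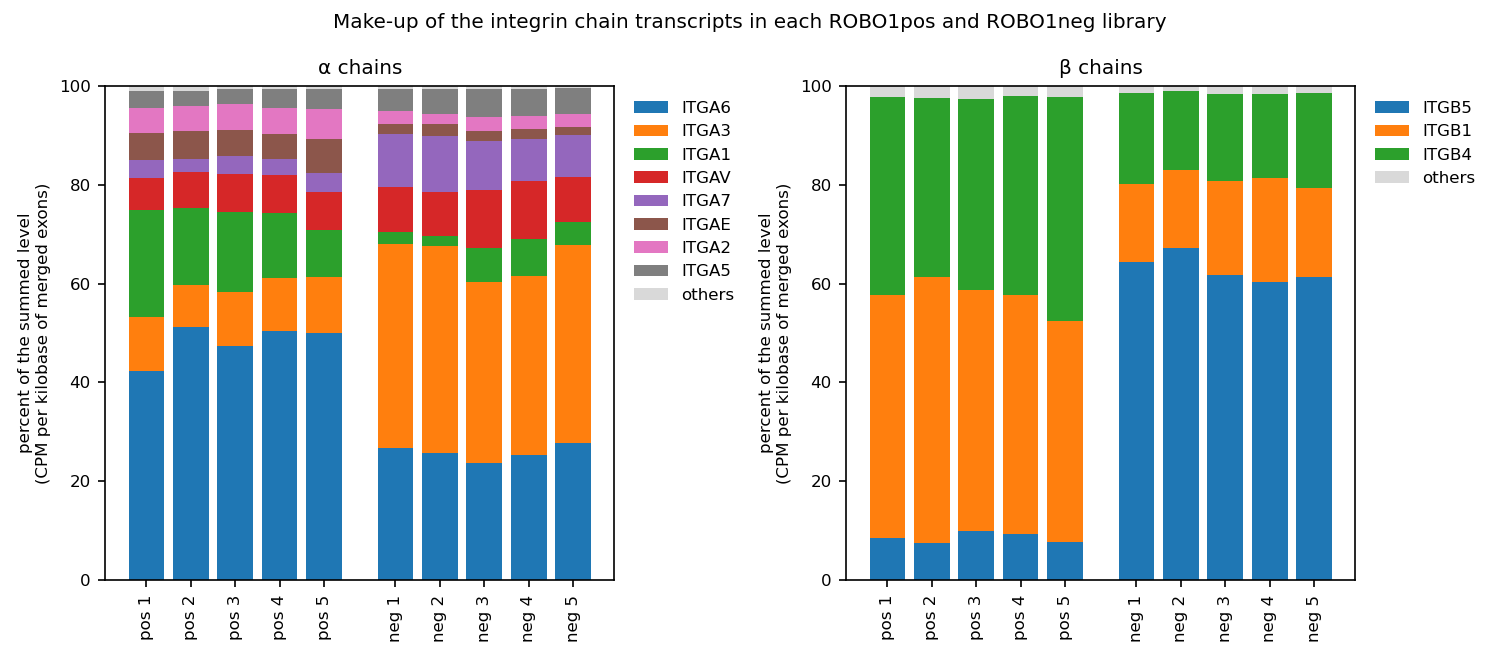
Percent of the summed level of the α chains (left) and β chains (right) held by each gene, in CPM per kilobase of merged exons, with 1 bar per library and the ROBO1pos libraries to the left of the ROBO1neg libraries. In the ROBO1pos bars ITGA6 has the largest share of the α chains, and ITGB1 and ITGB4 together take most of the β chains. ITGA3 and ITGB5 have the largest shares in the ROBO1neg bars.

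The read ratio of partner chains within a library, which needs no scaling, was computed for 10 of 13 pairs of α and β chains. ITGAV had a median of 0.887 reads per read of ITGB5 in ROBO1pos and 0.224 in ROBO1neg. Against ITGB6 the same chain stood at 14.6 in ROBO1pos and 39.8 in ROBO1neg, so that its balance shifted in opposite directions with these β chains. ITGA3 had a median of 0.176 reads per read of ITGB1 in ROBO1pos and 2.44 in ROBO1neg. For ITGA6 and ITGB4 the ratio was 0.523 to 1.03 in ROBO1pos and 1.03 to 1.29 in ROBO1neg, the closest approach of the groups among the pairs named here. These are reads, not receptors, and gene length enters each ratio equally in both groups.

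The activators of integrins divided by isoform. FERMT1, the kindlin of epithelial cells, was at 140.0, 155, 146, 153 and 156 CPM in the ROBO1pos libraries, against 64.5, 60.8, 75.7, 74.2 and 77.7 CPM in the ROBO1neg libraries. All ROBO1pos libraries lay above all ROBO1neg libraries, by 2.12-fold on average (log2 fold change 1.09, SE 0.07, adjusted p = 1.7e-09). FERMT2, the more widely expressed kindlin, was at 33.2 ± 3.27 CPM in ROBO1pos and 59.4 ± 3.30 CPM in ROBO1neg (log2 fold change -0.84, SE 0.06, adjusted p = 2.5e-08). The read ratio of FERMT1 to FERMT2 was 4.01 to 5.03 in ROBO1pos and 0.978 to 1.42 in ROBO1neg. FERMT3, the kindlin of blood cells, was at 0.948 ± 0.326 CPM in ROBO1pos and 0.930 ± 0.161 CPM in ROBO1neg and did not pass. Of the talins, TLN1 was at 209.6 ± 8.20 CPM in ROBO1pos and 349 ± 21.6 CPM in ROBO1neg (log2 fold change -0.74, SE 0.05, adjusted p = 3.7e-09). TLN2, the talin best known from brain and muscle, was at 10.4 ± 1.18 CPM in ROBO1pos and 9.74 ± 1.03 CPM in ROBO1neg (adjusted p = 0.378).

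Paxillin and focal adhesion kinase, which bind each other in the same plaque, went in opposite directions. PXN, which encodes paxillin, was at 49.1, 51.7, 53.7, 52.2 and 60.4 CPM in the ROBO1pos libraries, against 201, 201, 191, 181 and 212 CPM in the ROBO1neg libraries. It was 3.69-fold lower in ROBO1pos (log2 fold change -1.88, SE 0.06, adjusted p = 2.2e-12). PTK2, which encodes focal adhesion kinase, was at 99.9, 99.8, 96.2, 98 and 94.9 CPM in the ROBO1pos libraries, against 49.5, 45.2, 49.6, 53.5 and 53.7 CPM in the ROBO1neg libraries. These ranges were also apart, with ROBO1pos higher by 1.94-fold (log2 fold change 0.96, SE 0.05, adjusted p = 2.2e-10). ZYX, the actin regulator zyxin that joins adhesions under tension, was at 51.3, 49, 49.7, 56.1 and 60.5 CPM in the ROBO1pos libraries, against 191, 206, 195, 191 and 199 CPM in the ROBO1neg libraries, a log2 fold change of -1.88 (SE 0.06, adjusted p = 1.7e-12). VCL, the talin and actin linker vinculin, was at 139 ± 8.70 CPM in ROBO1pos and 229.6 ± 6.26 CPM in ROBO1neg (-0.72, SE 0.05). Exons of AP3M1 on the opposite strand cover 16.57% of those of VCL.

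The kinase-like scaffold ILK differed little, at 114 ± 4.68 CPM in ROBO1pos and 135 ± 2.49 CPM in ROBO1neg (log2 fold change -0.24, SE 0.04, adjusted p = 3.8e-05). Its partners, the parvins, moved apart. PARVA was at 104 ± 8.82 CPM in ROBO1pos and 264 ± 14 CPM in ROBO1neg (log2 fold change -1.34, SE 0.06), and PARVB at 61.1 ± 3.68 CPM in ROBO1pos and 48.1 ± 3.17 CPM in ROBO1neg (0.34, SE 0.05). The read ratio of PARVA to PARVB was 1.57 to 1.81 in ROBO1pos and 4.89 to 6.62 in ROBO1neg.

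Tensins, which tie β chain tails to actin, differed among themselves. TNS1 was at 0.232, 0.556, 0.194, 0.283 and 0.493 CPM in the ROBO1pos libraries, against 11.6, 12.5, 8.33, 7.68 and 8.73 CPM in the ROBO1neg libraries. With 5 to 15 reads per ROBO1pos library, its fitted level was 27.3-fold lower there (95% interval 19.6 to 38.1), a value given as a description because TNS1 met the count filter only through ROBO1neg. TNS4, a short tensin without the actin-binding part, was at 118 ± 6.01 CPM in ROBO1pos and 290.4 ± 30 CPM in ROBO1neg (log2 fold change -1.30, SE 0.07). TNS3 was at 156 ± 14.1 CPM in ROBO1pos and 168 ± 9.96 CPM in ROBO1neg and did not pass (adjusted p = 0.125), though it did without ROBO1pos replicate 4 (log2 fold change -0.15, adjusted p = 0.023).

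Neighbouring genes on the chromosome were shifted around some members. Each tested member was set against 20 tested genes to either side, whose median was subtracted from its log2 fold change. Of the 25 members lower in ROBO1pos, 19 remained below -0.5 after this step. This count is a description, with no matching share over all genes. Among the 19 are ITGAX, ITGB2 and TNS1, which met the count filter only through ROBO1neg. ITGB4, TLN1 and ITGAE did not stand out from their surroundings: their log2 fold changes of -0.49, -0.74 and -0.54 became 0.01, -0.07 and -0.09. ITGB5, in a stretch of chromosome 3 with a median of -0.97, kept a difference of -3.59, and ITGA3 kept -3.33. ITGA5, ITGA7 and ITGB7 lie on the same arm of chromosome 12 among genes with medians of -0.81, -0.61 and -0.60, and ITGB7 went against these with 2.38 after the step. The copy number of these stretches was not measured.

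**Figure D3:**
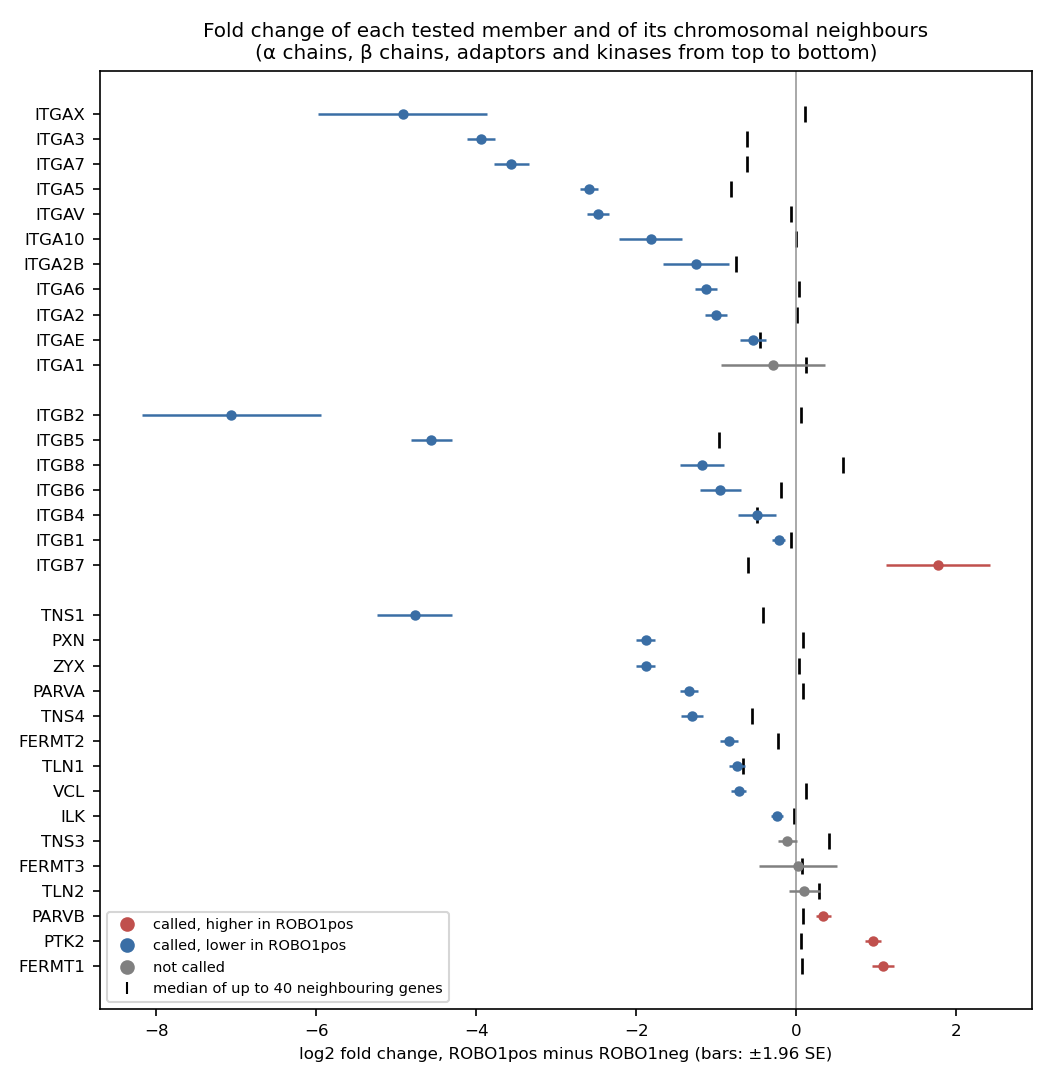
Log2 fold change, ROBO1pos minus ROBO1neg, of each tested member (dots, with bars for 95% intervals) and the median of up to 40 neighbouring genes (black ticks). The dots of ITGB4, TLN1 and ITGAE sit at their ticks, while those of ITGB5, ITGA3 and TNS1 lie far to the left of theirs.

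Genes that work with integrins, 112 in a list of ligands, membrane partners, regulators, kinases and linkers that excludes the members, were also more often lower than higher in ROBO1pos. Of 101 tested, 72 were lower, 19 higher and 10 did not pass, beside 40.4% lower and 41.6% higher over all genes, with a median log2 fold change of -0.67. Of the 101, TNC, COL17A1, KANK4 and ARHGEF6 met the count filter only through ROBO1neg and FBN1, LAMA1, COL1A2 and ELMO1 only through ROBO1pos, and among the other 93, 68 were lower and 16 higher. Among 25 ligands, 16 were lower. FN1, which encodes fibronectin, was at 3.31 ± 1.54 CPM in ROBO1pos and 451 ± 121 CPM in ROBO1neg, and its receptor chain ITGA5 was lower in the same libraries. CYR61, a matrix protein bound by ITGAV receptors, had a log2 fold change of -6.40 (SE 0.09). TNC, which encodes tenascin C, had 26 reads over all ROBO1pos libraries and 1671 over all ROBO1neg libraries. Higher in ROBO1pos were 7 ligands, among them the basement membrane collagens COL4A1 at 90.9 ± 11 CPM, against 2.12 ± 0.534 CPM in ROBO1neg, and COL4A2 (log2 fold change 0.97, SE 0.08), and the laminin chain LAMB3 (0.63, SE 0.10).

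Of 13 membrane partners, 10 were lower in ROBO1pos and 2 higher, beside 40.4% lower and 41.6% higher over all genes. SDC4, a syndecan that assists fibronectin receptors in focal adhesions, was at 16.7 ± 0.987 CPM in ROBO1pos and 358 ± 115 CPM in ROBO1neg. CAV1, the caveolar coat protein, and PLAUR, the urokinase receptor, had log2 fold changes of -3.82 (SE 0.30) and -3.42 (SE 0.11). CD82, a tetraspanin, and CD47, an integrin-associated protein, were at 0.32 (SE 0.14) and 0.22 (SE 0.07). For both of the latter the libraries of the groups overlapped, and CD82 passed narrowly (edgeR adjusted p = 0.0483). Hemidesmosome genes divided: of 4 tested, DST, which encodes dystonin, was higher (0.79, SE 0.09), the keratin KRT5 (-0.58, SE 0.07, among neighbours at -0.80) and the hemidesmosomal collagen COL17A1 (2 reads over ROBO1pos, 95 over ROBO1neg) were lower, and PLEC, which encodes the ITGB4 binding protein plectin, did not pass.

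The counts by role that follow stand beside 40.4% lower and 41.6% higher over all genes. Of 13 regulators of activation and traffic, 10 were lower and only KANK1 was higher in ROBO1pos (log2 fold change 0.86, SE 0.08), while its relative KANK2 was lower (-1.35, SE 0.07). Both proteins bind talin. FLNA, a filamin that competes with talin for β chain tails, was at 1049 ± 173 CPM in ROBO1pos and 2675 ± 126 CPM in ROBO1neg, and the endocytic adaptor DAB2 was at -2.88 (SE 0.13). Of 22 kinases and scaffolds, 16 were lower, with the docking protein NEDD9 at 5.28 ± 0.972 CPM in ROBO1pos and 118 ± 19.3 CPM in ROBO1neg and ASAP1 at -3.93 (SE 0.06). The 5 higher included RCC2 (1.2, SE 0.05), CRKL (0.19, SE 0.04) and CSK, which restrains SRC kinases, at 123 ± 4.68 CPM in ROBO1pos and 54.4 ± 1.86 CPM in ROBO1neg. CSK, RCC2 and CRKL lie among genes with median log2 fold changes of 0.82, 0.58 and 0.25. With these medians removed, CSK and RCC2 kept 0.36 and 0.62, and CRKL was at -0.06. Of 24 actin linkers, 18 were lower, with the zyxin relative TRIP6 at -3.31 (SE 0.09) and LIMS2 at -3.81 (SE 0.13). The 3 higher were the paxillin relative LPXN, at 33.1 ± 8.83 CPM in ROBO1pos and 4.98 ± 0.458 CPM in ROBO1neg, and the actin polymerisation factors ENAH (1.97, SE 0.10) and EVL (1.19, SE 0.07).

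**Figure D4:**
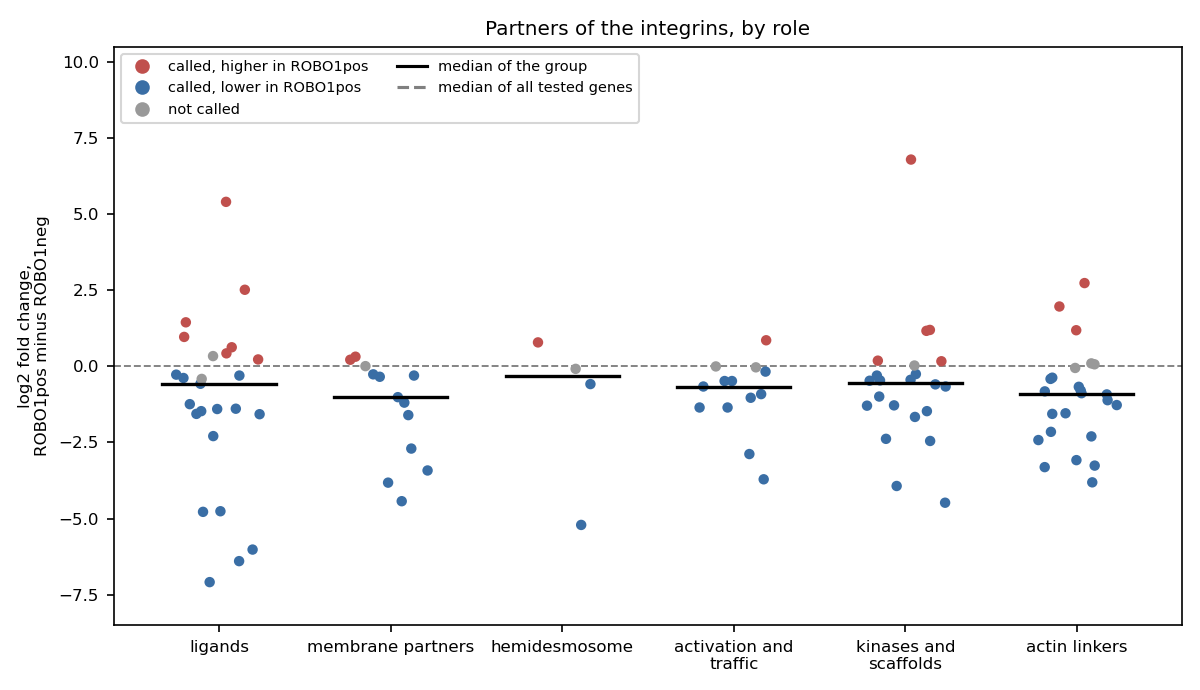
Log2 fold change, ROBO1pos minus ROBO1neg, of 101 tested integrin partners by role, with black bars for group medians and a dashed line for the median of all tested genes (0.02). The group medians run from -1.01 for membrane partners to -0.33 for hemidesmosome genes.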

How the data were processed

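RNA of 10 SW480 libraries was sequenced from TruSeq stranded mRNA libraries, per the labels' protocols. Each deposited file gives, for 1 library, whole-number counts by gene symbol, not normalised by the authors. Per the submitters' processing notes, the genome was GRCh38 and the tools included bcl2fastq, FastQC, STAR 2.6.0c, DESeq2 1.24.0 and SAMtools 1.9, named without roles. Which tool counted the reads, with what strand setting and on which annotation, the sources used here do not give. The 5 summary entries that name no gene were left out. They held 15.2% to 16.7% of reads as without a feature, 24.1% to 26.2% as aligned to several places and 0.843% to 0.881% as ambiguous in ROBO1pos, against 14.1% to 14.9%, 20.5% to 21.5% and 0.806% to 0.855% in ROBO1neg.

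Counts were fitted with edgeR 4.0.16 in R 4.3.3 (filterByExpr, TMM, quasi-likelihood F test with group as the only term), and p-values were adjusted by Benjamini-Hochberg over all 14932 genes tested. CPM use TMM-scaled library sizes. Standard errors come from the coefficient and its F statistic, and 95% intervals of folds use the normal approximation. Alternatives were RLE, upper quartile and library size scaling, no filter, 5 CPM in 5 libraries, DESeq2 1.42.0, limma-voom (limma 3.58.1), glmTreat at 1.5-fold, a replicate block, leaving out libraries in turn, and removal of the median of neighbouring genes. Positions are from RefSeq GRCh38.p14 and were found for all but 325 tested genes. The fit was tested on simulated data. Chi-square per gene between libraries of a group was 3.49 to 21.54 (1 under sampling alone), so 0 were counted as duplicates. All 40 members and ROBO1 are named. Of the partner genes, up to 3 called genes per role and direction are named by largest fold change at 5 CPM or more in the higher group, except 2 that are not reported here, and COL17A1, PLEC and the partners that met the filter through 1 group alone were named after their values were seen. Members and lists were chosen with earlier results of these data known.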

Additional observations from a re-analysis of the deposited data

Results flagged for a closer look

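With 66 groups of 5 libraries examined (33 tested members in each population), chance alone would flag about 1 in 20, and 3 groups had a library far from the other 4. ITGAX was at 0.116 CPM in ROBO1pos replicate 3 and at 0 in the other ROBO1pos libraries. ITGB2 was at 0.0775 CPM in the same library and at 0 in the others. These values stand for 3 and 2 reads. TNS3 was at 186 CPM in ROBO1neg replicate 3, against 163 to 165 CPM in the other ROBO1neg libraries.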

How the results depend on the processing

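Across 621 results of tested members under the alternatives with a test, 610 kept their direction and their side of the threshold. Against 1.5-fold, ITGAE, ITGB1, ITGB4, ILK and PARVB no longer passed, which follows from the larger difference required; 21 members were then lower and 3 higher, and 12 partner genes were higher in place of 19. With no filter on low counts 2 α chains (ITGA4 and ITGA9) were called higher in place of 0, and ITGAM, ITGA11 and ITGB3 were called lower. With 5 CPM in 5 libraries 0 β chains were called higher in place of 1, since ITGB7 was then not tested. FERMT3, called in no fit, ran from -0.10 to 0.18 with 1 library left out, and was negative without ROBO1pos replicate 3 (-0.10), 4 (-0.02) or 5 (-0.10), without ROBO1neg replicate 1 (-0.07) and in limma-voom (-0.04). Removal of neighbours gave 0.01 for ITGB4 and 6.57 for ROBO1, and yields no test, so no counts. Replicate numbers are shared by the groups, and the 5 same-numbered pairs correlated at 0.062 to 0.169 in their deviations from the group means, 3 of them above 0.1. Each ROBO1pos library correlated best with its own number, a hint from the data and not the design. However, ROBO1neg replicate 2 correlated best with ROBO1pos replicate 5 (0.09), and ROBO1neg replicate 4 with ROBO1pos replicate 3 (0.095). Since not every pair exceeded 0.1, they were not treated as pairs. With the number as a block, 25 members were again lower and 4 higher, and 73 and 19 partner genes. Depth limits the 7 members that were not tested, and ITGAX, ITGB2 and ITGB7.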
